A study of Phaseolus vulgaris with 36 samples.

Results

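The 100 genes described here were those whose RNA was most clearly higher in pods of the wild common bean G12873 than in pods of 3 domesticated beans at every stage sampled. They were chosen from the measured values. Estimated counts were summed per gene, scaled to library size as CPM (counts relative to the library total) with TMM library sizes, put on a log2 scale with a prior count of 2, and averaged over the libraries of a group. A gene's score was the smallest, over the stages R7, R8 and R9, of its G12873 mean minus the highest of the 3 domesticated means, and the 100 genes with the highest scores were taken. The files held 27433 genes, 20957 passed the low-count filter used for the scores, and 672 had a positive score. All 100 members were among the 20966 genes that passed the filter used for the tests.

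The series compares untreated pods of 4 Phaseolus vulgaris accessions at 3 stages, with 3 libraries in each of the 12 groups. G12873 is labelled wild-type with fully dehiscent pods, MIDAS is labelled domesticated and indehiscent, and SXB405 and ICA Bunsi are labelled domesticated with a middle degree of dehiscence. R7 is the stage of the first emerging pod, R8 that of the filling pod and R9 that of the final mature pod. The only wild accession is also the only fully dehiscent one, so accession, wild status and full dehiscence cannot be told apart. Separate plants are not stated as the source of the libraries within a group, so p-values measure the spread between libraries, which may be technical. Whole pods were sampled, and fewer cells of a type and less RNA per cell cannot be told apart. With no gene names used here, the tissue label was not checked against marker genes.

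Pod dehiscence, or shattering, is the splitting of the ripe pod along its sutures, with a twisting of the valves that throws the seeds out. Wild common bean disperses its seed in this way, and reduced shattering is one of the classic traits of domestication in legumes. The fibres of the sutures and of the inner valve layer build thickened, lignified walls as the pod fills, and drying of the mature pod puts these layers under tension.

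None of the 27433 identifiers matched the reference gene table, so the members are given by identifier, with no name, function or sequence. Chromosome numbers below are those written in the identifiers. All 100 members had a G12873 mean above each domesticated mean at each stage, as the choice requires, and these differences are given with no test. The label "high only" in G12873 holds for part of the set. In 2 members no domesticated library had a count (0.00954% of all genes tested). A count was found in at most 9 of the 27 in 15 members (0.773%), and in all 27 in 20 members (73.1%). In 18 members at least 1 domesticated group averaged over 10 CPM, against 67.7% of all genes tested. In 4 members at least 1 domesticated group averaged over 100 CPM, against 10.9%. The choice of members bears on these shares, so their gap to all genes is not read as a result.

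Depth bore on these values. Total counts ran from 2032504 to 15202548 per library, and a group of 9 abundant genes that rose and fell together took 1.95% to 85.9% of them, with over 50% in 8 libraries. Among those 8 were G12873 R7 replicates 1 and 2, where 285820 and 697167 counts were left for all other genes, against 9980087 in replicate 3. One count was worth 3.32, 1.01 and 0.0594 CPM in the 3 G12873 R7 libraries, and a count of 0 allows up to 9.96, 3.03 and 0.178 CPM, taking 3 counts as the upper limit and counting error only. Members had a median of 2, 7 and 88 counts in these libraries, and 24, 16 and 0 members were at 0 in them.

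The typical member was expressed at a lower level than the typical gene, in G12873 too. The mean level over the 9 G12873 libraries had a median of 3.572 TPM (a transcript level scaled for length and library size) and ran from 0.334 to 847.8 TPM, against a median of 6.006 TPM over all genes tested. Over the 27 domesticated libraries the members' median was 0.4826 TPM, against 7.48 TPM over all genes tested. The difference from the highest domesticated mean, on the log2 scale, had a median of 1.62 at R7, 2.16 at R8 and 1.85 at R9. The medians over all genes tested were -0.94, -0.35 and -0.38. Subtracting the highest of 3 accessions lowers such medians at every stage. Why the R7 median was the lowest was not tested.

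The scores fell off quickly. The highest was 5.605 on the log2 scale and the last member's was 0.7936, with 6 members at 3 or more, 18 at 2 or more and 69 at 1 or more, which is a 2-fold difference at every stage. Phvul.011G081300 and Phvul.003G158000, ranked 99 and 100, had scores of 0.7999 and 0.7936. The first genes outside the set, Phvul.002G221700 and Phvul.004G100800, had scores of 0.7877 and 0.7764. The edge of the set is therefore a cut through a continuous range. The smallest of a member's 3 differences was at R7 in 49 members, at R8 in 15 and at R9 in 36.

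**Figure D1:**
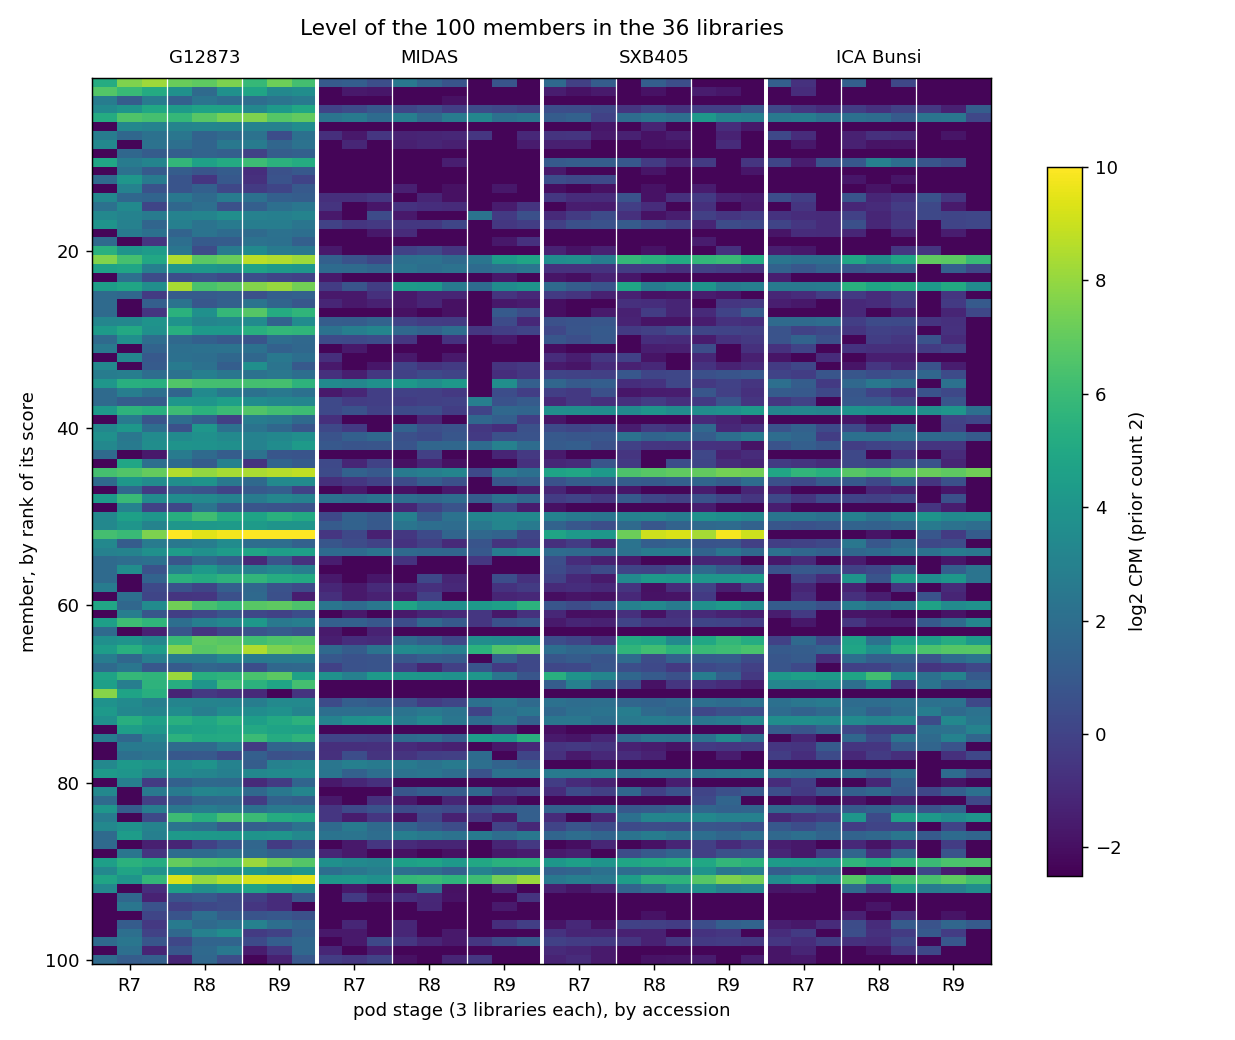
Level of the 100 members (rows, by rank of score) in the 36 libraries (columns, 3 per stage and accession), as log2 CPM with a prior count of 2, with the colour scale ending at 10. The 9 G12873 columns at the left are brighter than the 27 domesticated columns in most rows, and several rows, among them rank 52, are also bright in 1 or more domesticated accessions.

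Separation was also counted library by library. At R8, 91 members had all 3 G12873 libraries above all 9 domesticated ones (7.24% of all genes tested), at R9 75 had (3.22%) and at R7 51 had (3.56%). At all 3 stages 39 members were separated in this way (0.248%), and in 19 members each of the 9 G12873 libraries was above each of the 27 domesticated libraries (0.0954%). These shares follow from how the members were chosen, so nothing is read from them. Without the 8 libraries named above the counts were 93 at R7, 92 at R8, 85 at R9 and 75 at all 3 stages. G12873 then kept only replicate 3 at R7, and ICA Bunsi only replicate 2 at R9.

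Phvul.004G092182, on chromosome 4, had the highest score. Its 3 G12873 libraries had 36.5, 193 and 289 CPM at R7, 139, 118 and 185 CPM at R8, and 58.1, 151 and 77.5 CPM at R9. The 27 domesticated libraries ran from 0 to 5.53 CPM with a median of 0.923 CPM, and 16 of them had a count. Every G12873 library lay above every domesticated one, and the smallest difference, 5.60 on the log2 scale, was at R8 against MIDAS.

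Phvul.008G042400, on chromosome 8, had the second highest score and was higher in young G12873 pods than in later ones. It had 99.6, 60.7 and 35.1 CPM at R7, 13.3, 3.39 and 13.3 CPM at R8, and 28.0, 10.01 and 12.2 CPM at R9 in G12873. In the 27 domesticated libraries it had a count in 9, with a highest value of 0.339 CPM and a median of 0. Phvul.009G240633, the third, was lower and flatter in G12873, with 6.64, 2.02 and 6.36 CPM at R7, 2.31, 4.80 and 3.53 CPM at R8, and 3.66, 4.76 and 5.95 CPM at R9. In the domesticated beans it rested on 1 count in 1 MIDAS R8 library.

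Phvul.008G162000 had 9.96, 15.2 and 30.7 CPM at R7, 19.9, 26.1 and 25.4 CPM at R8, and 9.81, 18.5 and 31.2 CPM at R9 in G12873. All 27 domesticated libraries had a count, from 0.159 to 1.87 CPM with a median of 0.840 CPM. Phvul.008G028100 likewise had a count in every domesticated library, from 0.759 to 17.6 CPM with a median of 4.72 CPM. Its G12873 libraries had 36.5, 95.04 and 80.5 CPM at R7, 56.6, 108 and 168 CPM at R8, and 189.8, 105 and 128 CPM at R9. Both genes kept a low but measurable level in the domesticated beans, with no overlap between these libraries and those of G12873.

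Phvul.010G110050, the sixth, had 0, 9.10 and 7.90 CPM at R7, 8.43, 8.81 and 8.71 CPM at R8, and 8.06, 7.73 and 11.6 CPM at R9 in G12873. It had no count in any MIDAS or ICA Bunsi library and 9 counts over the 9 SXB405 libraries. The single overlap with domesticated libraries came from the 0 in G12873 R7 replicate 1, where a count of 0 allows up to 9.96 CPM.

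**Figure D2:**
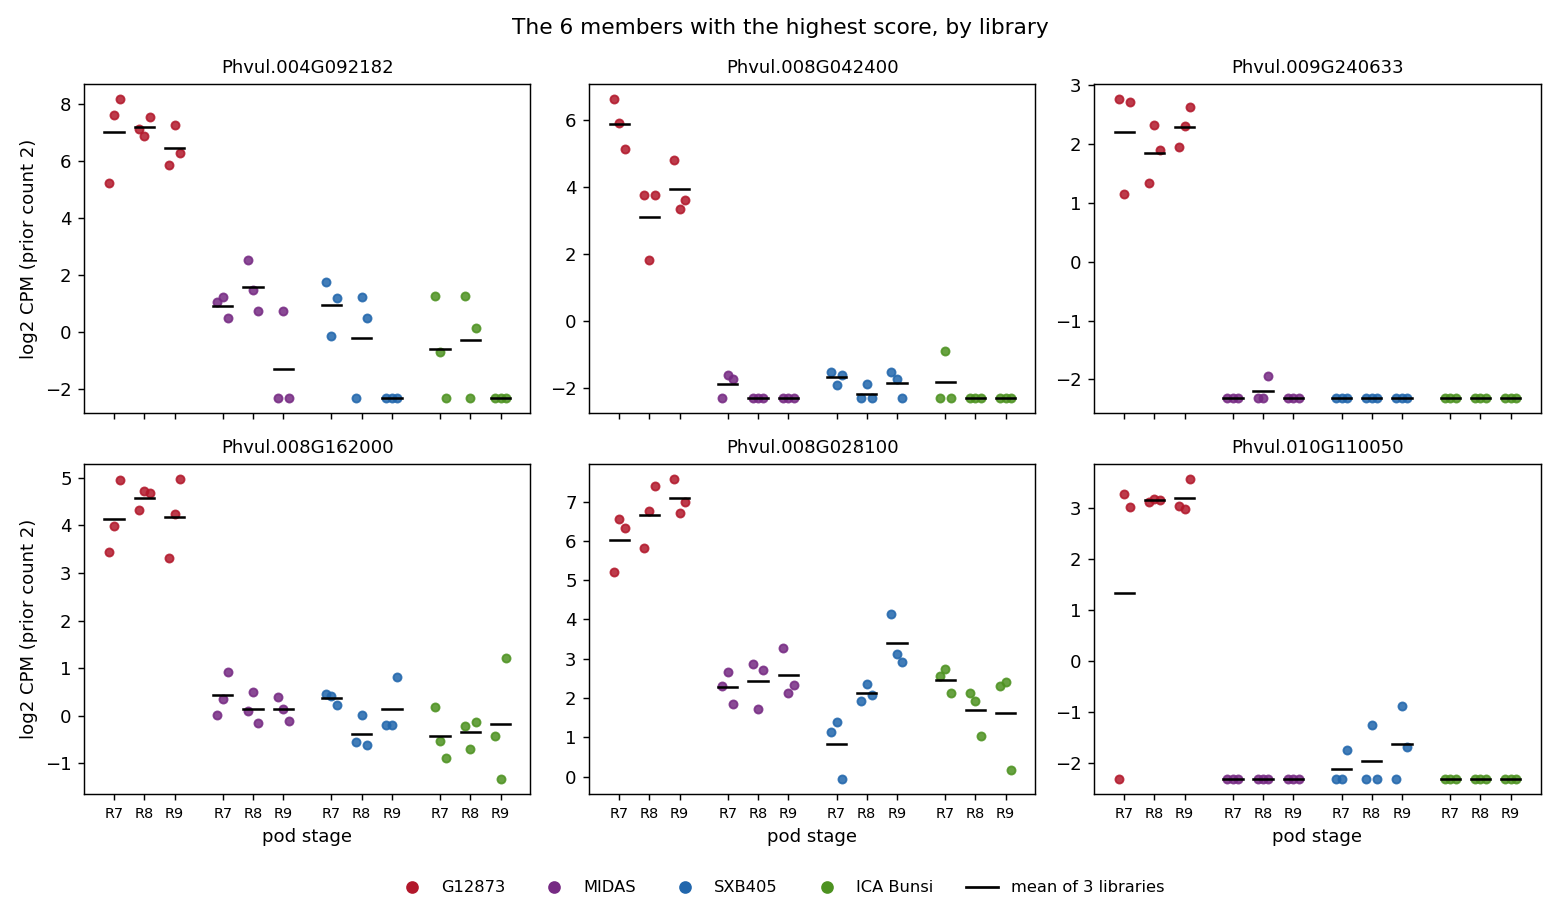
Log2 CPM (prior count 2) of the 6 members with the highest scores in each library, by accession and pod stage, with 1 point per library and a bar at the mean of 3. G12873 points lie above all domesticated points in 5 of the 6 panels, and in the panel of Phvul.010G110050 only the library at 0 lies among them.

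Both members with no count in any domesticated library rested on few counts at some stage. Phvul.009G139600, which was chosen after its values were seen, had 0, 3.03 and 2.02 CPM at R7, 2.195, 2.59 and 2.28 CPM at R8, and 0.732, 2.08 and 2.23 CPM at R9 in G12873. Phvul.007G020800 had 212, 26.3 and 40.1 CPM at R7 in G12873, but 0.231, 0.554 and 0.415 CPM at R8 and 0.293, 0 and 0.446 CPM at R9. A count of 0 over the 9 libraries of an accession allows up to 0.0368 CPM for MIDAS, 0.0234 CPM for SXB405 and 0.0403 CPM for ICA Bunsi.

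At the other end, the members with the highest levels were not absent from the domesticated beans. The mean of Phvul.004G158300 was 848 TPM over the G12873 libraries, 1.38 TPM in MIDAS, 429 TPM in SXB405 and 0.185 TPM in ICA Bunsi. Phvul.011G183950, on chromosome 11, averaged 659 TPM in G12873, 146 TPM in MIDAS, 138 TPM in SXB405 and 98.3 TPM in ICA Bunsi. These were 2 of the 4 members with a domesticated group mean over 100 CPM. The others were Phvul.007G020600, with 100.6 ± 10.3 CPM in ICA Bunsi at R9, and Phvul.002G022200, chosen after its values were seen, with 151 ± 20.8 CPM in SXB405 at R9 (SD, n = 3 each).

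The choice of members read the level of G12873 at each stage and set no condition on its change between stages. That change is made of the same levels, so it is not independent of the choice. How the choice bears on the calls was not tested. The change was tested with edgeR's quasi-likelihood test over all genes. A change counted as called when it was at least 2-fold and its p, adjusted by Benjamini-Hochberg over all genes tested, was under 0.05. From R7 to R8 in G12873, 19 members rose (11.9% of all genes tested rose) and 7 fell (12.8%). From R7 to R9, 21 rose (14.4%) and 11 fell (15.7%). The other 74 members at R8 and 68 at R9 did not pass the test. No test set these shares against those of all genes, and both steps share the R7 libraries, 2 of which are shallow.

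The median change of the 100 members was 0.38 at R8 and 0.22 at R9 on the log2 scale, against 0.08 and 0.05 over all genes tested. Without the 8 libraries named above the members called were 24 up and 4 down in both steps, beside 4128 of all 22030 genes then tested from R7 to R8 and 5292 from R7 to R9. That setting leaves only replicate 3 in G12873 R7 and only replicate 2 in ICA Bunsi R9. These were assumed to vary like the libraries of the other groups.

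From R8 to R9 no member passed (background 0% up and 0% down). By edgeR's quasi-likelihood test 4 members had an unadjusted p under 0.05, as did 1209 of all genes, and the smallest adjusted p among members was 0.416. DESeq2 and limma-voom also called 0 members. The members' changes in this step ran from -2.70 to 1.22 on the log2 scale.

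**Figure D3:**
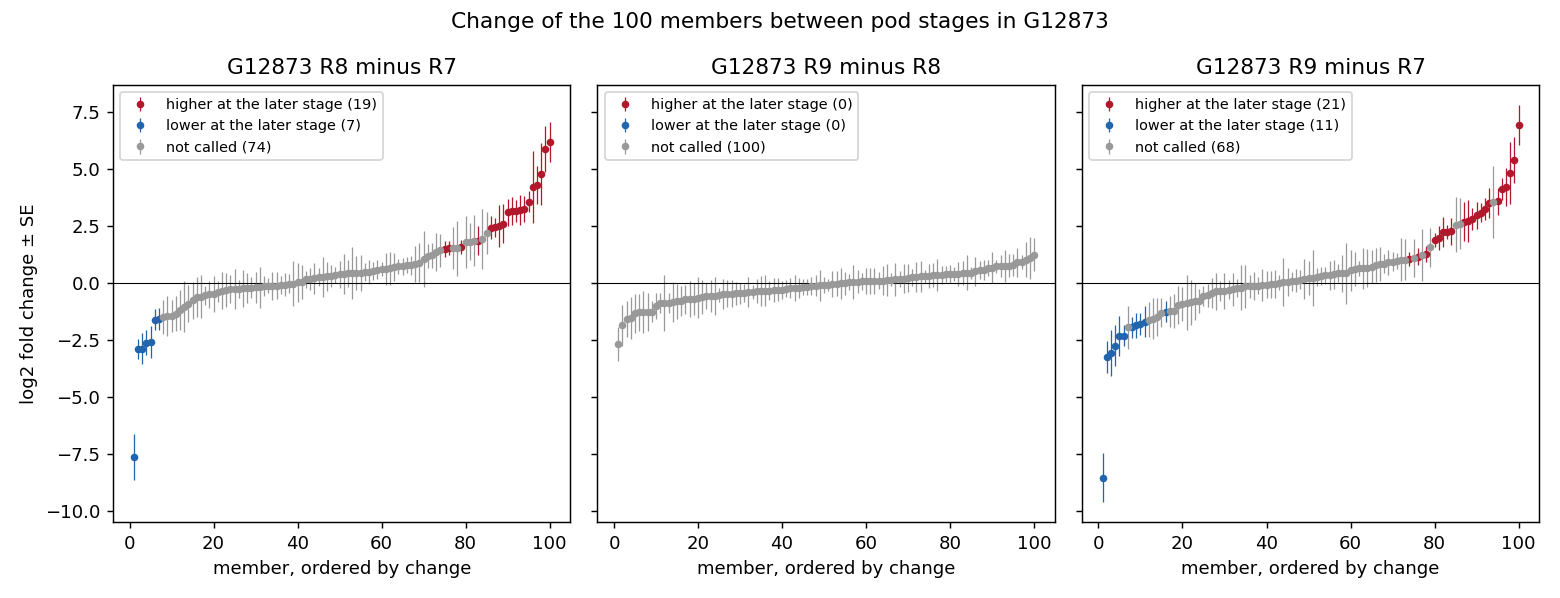
Log2 fold change of each of the 100 members between pod stages in G12873, ordered by size within each panel, with the SE from edgeR's quasi-likelihood fit as error bar and colours for the call. The changes to R8 and R9 from R7 spread widely with called members at both ends (19 and 7, and 21 and 11), while none is called between R8 and R9.

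The member with the largest rise was Phvul.002G302100, on chromosome 2. In G12873 it had 3.32, 0 and 0.475 CPM at R7, from 1, 0 and 8 counts, then 44.5, 13.5 and 56.4 CPM at R8 and 104, 35.7 and 50.6 CPM at R9. All later libraries were above all R7 libraries. The log2 change was 6.18 (SE 0.888) from R7 to R8, with an adjusted p of 1.36e-05 by edgeR's quasi-likelihood test, and 6.92 (SE 0.886) from R7 to R9, with an adjusted p of 2.57e-06. In the domesticated beans it stayed at or below 1.90 CPM in all 27 libraries.

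Phvul.011G077700 followed the same course in G12873, with 6.64, 0 and 0.951 CPM at R7, 67.6, 40.3 and 77.8 CPM at R8, and 64.6, 36.6 and 31.97 CPM at R9. The log2 change was 5.87 (SE 1.01; edgeR adjusted p = 9.70e-05) to R8 and 5.39 (SE 1.02; edgeR adjusted p = 0.000186) to R9. It was also measured in the domesticated accessions, where the R8 mean was 7.28 ± 2.76 CPM for SXB405 and 14.0 ± 11.9 CPM for ICA Bunsi (SD, n = 3 each). MIDAS was lower than both and averaged 0.399 ± 0.486 CPM at R8 and 0.946 ± 1.12 CPM at R9.

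The 2 most abundant members rose as well. Phvul.004G158300 had 76.4, 62.7 and 182 CPM at R7, 1566, 694 and 878 CPM at R8, and 1547, 1206 and 1192 CPM at R9 in G12873. Phvul.011G183950 had 26.6, 15.2 and 55.6 CPM at R7, 627, 251 and 378 CPM at R8, and 584, 589 and 686 CPM at R9. Neither gene's R7 libraries overlapped its later ones, and the changes to R8 were 3.24 (SE 0.571; edgeR adjusted p = 0.000128) for Phvul.004G158300 and 3.56 (SE 0.470; edgeR adjusted p = 2.50e-06) for Phvul.011G183950.

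Among the members that fell, Phvul.007G020800 had the largest change, with the values given above. It fell by 7.64 (SE 0.999) from R7 to R8 on the log2 scale, with an adjusted p of 0.000161 by edgeR's quasi-likelihood test, and by 8.54 (SE 1.09; edgeR adjusted p = 0.000104) from R7 to R9. The R7 and later libraries did not overlap, but DESeq2 did not call it in either step: its log2 changes were as large, -8.09 to R8 and -8.81 to R9, with an adjusted p of 0.408 to R8 and 0.342 to R9. Its 3 R7 libraries themselves differed widely, with 64, 26 and 675 counts at unequal depths.

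Phvul.006G017600, on chromosome 6, had 23.2, 69.8 and 51.5 CPM at R7, 3.81, 7.33 and 9.13 CPM at R8, and 17.7, 5.75 and 6.99 CPM at R9 in G12873. It fell by 2.90 (SE 0.456; edgeR adjusted p = 2.25e-05) to R8 on the log2 scale. Phvul.011G200500 had 3.32, 16.2 and 6.002 CPM at R7, 1.502, 0.493 and 1.66 CPM at R8, and 0.439, 1.39 and 0.892 CPM at R9. It fell by 3.24 (SE 0.700; edgeR adjusted p = 0.00162) from R7 to R9. Both genes had every R7 library above every later one. In R7 replicate 1 a single count was worth 3.32 CPM, so the value of Phvul.011G200500 there is a single count. The value of 23.2 CPM for Phvul.006G017600 in that library also rests on few counts.

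Most risers of G12873 also had higher means at R8 than at R7 in the domesticated beans: 17 of the 19 in MIDAS, 17 in SXB405 and 19 in ICA Bunsi. Of the 7 that fell, the R8 mean was below the R7 mean in 4 in MIDAS, 4 in SXB405 and 2 in ICA Bunsi. These are counts of the direction of group means, with no call. They were not made for all genes, so a shared course is not read as particular to the members. Among the 19 risers the smallest difference from the domesticated beans was at R7 in 12 and at R9 in 7, and among the 7 fallers it was at R8 in 3 and at R9 in 4.

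Whether a member's change from R7 to R9 in G12873 differed from the mean change of the 3 domesticated accessions was tested as an interaction in the same fit. Both stages enter the score, so a member had to stay above the domesticated means at each, and the test bears only on how the gap changed. In 2 members G12873 changed more upward (4.11% of all genes tested) and in 4 more downward (4.72%). No test set these shares against those of all genes, and nothing is read from them. The other 94 did not pass.

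In Phvul.011G214300 the group means ran opposite ways. G12873 had 19.9, 32.4 and 13.3 CPM at R7 and 41.6, 54.1 and 51.0 CPM at R9, and its R9 libraries were all above its R7 ones. MIDAS averaged 6.80 ± 2.30 CPM at R7 and 0.675 ± 0.166 CPM at R9, SXB405 1.43 ± 0.470 and 0.800 ± 0.0820 CPM, and ICA Bunsi 1.06 ± 0.335 and 0.133 ± 0.230 CPM (SD, n = 3 each). In the shallow ICA Bunsi R9 replicates 1 and 3 a count of 0 allows up to 1.42 and 2.81 CPM, above the ICA Bunsi R7 mean. The ICA Bunsi R9 value therefore rests on replicate 2, and the fall in that accession is uncertain. The change was 1.25 in G12873 and averaged -1.96 in the domesticated beans, a difference of 3.21 (SE 0.473; edgeR adjusted p = 9.48e-05).

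Phvul.006G017600 ran the other way. It fell by 2.32 from R7 to R9 in G12873 on the log2 scale, while the domesticated mean change was 2.54, a difference of -4.86 (SE 0.632; edgeR adjusted p = 1.85e-05). The domesticated accessions were not alike: the R7 and R9 means were 2.07 ± 0.361 and 1.18 ± 0.606 CPM in MIDAS, 0.182 ± 0.0485 and 0.773 ± 0.126 CPM in SXB405, and 0.0376 ± 0.0652 and 4.86 ± 3.96 CPM for ICA Bunsi (SD, n = 3 each). At R7 ICA Bunsi held 1 count over its 3 libraries, so the fitted domesticated change depends on the prior count.

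Phvul.004G124800 and Phvul.005G030800 were called by smaller margins. Phvul.004G124800 averaged 11.6 ± 2.68 CPM at R7 and 8.38 ± 5.03 CPM at R9 in G12873, and its domesticated mean change was -2.39, a difference of 1.82 (SE 0.555; edgeR adjusted p = 0.0336) that lost its call in 11 of 31 alternatives, with an adjusted p of up to 0.298. Those 11 were the replicate block (adjusted p = 0.0525), limma-voom (0.154), only the samples compared (0.0715), leaving out the 8 libraries (0.298), and leaving out G12873 R7 replicate 1 or 2, G12873 R9 replicate 1 or 3, ICA Bunsi R9 replicate 2, SXB405 R9 replicate 1 or MIDAS R9 replicate 3. Phvul.005G030800 averaged 6.16 ± 2.91 CPM at R7 and 49.9 ± 14.5 CPM at R9 in G12873, and its change was smaller than in the domesticated beans by 2.59 on the log2 scale (difference -2.59, SE 0.639; edgeR adjusted p = 0.0102). Without G12873 R7 replicate 3 that difference was -1.74, with an adjusted p of 0.258.

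The score reads only the highest of the 3 domesticated accessions, and which one was highest changed with gene and stage. MIDAS was highest in 30 members at R7, 32 at R8 and 29 at R9. SXB405 was highest in 35, 22 and 38 members, and ICA Bunsi in 35, 46 and 33. No count was found in MIDAS in 8 members, in SXB405 in 7 and in ICA Bunsi in 9, against 0.382%, 0.3% and 0.477% of all genes tested. The rule favours domesticated levels that are low relative to G12873, and such genes passed the low-count filter through other accessions. Nothing is therefore read from this gap. Of the 100 members, 2 had no count in all 3 accessions, 5 in 2 of them and 8 in 1 of them.

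Differences among the domesticated beans, averaged over the 3 stages, were then tested with edgeR's quasi-likelihood test. The rule keeps the highest domesticated mean below that of G12873 and leaves the other accessions free below it. How this choice bears on the calls was not tested. MIDAS was higher than ICA Bunsi in 12 members (9.25% of all genes tested) and lower in 21 (7.09%). It was higher than SXB405 in 13 (11.3%) and lower in 18 (7.19%). SXB405 was higher than ICA Bunsi in 2 (2.73%) and lower in 13 (4.39%). The last pair rested partly on 1 library: without ICA Bunsi R9 replicate 2 SXB405 was called against ICA Bunsi in 8 members in place of 15, with 4 higher and 4 lower. That replicate is the deepest of its group. The co-varying abundant genes took 12.2% of its counts, against 63.9% and 71.6% in replicates 1 and 3. The pairs share libraries, and 57 members were called in none of them. That count was not made over all genes, so nothing is read from it.

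**Figure D4:**
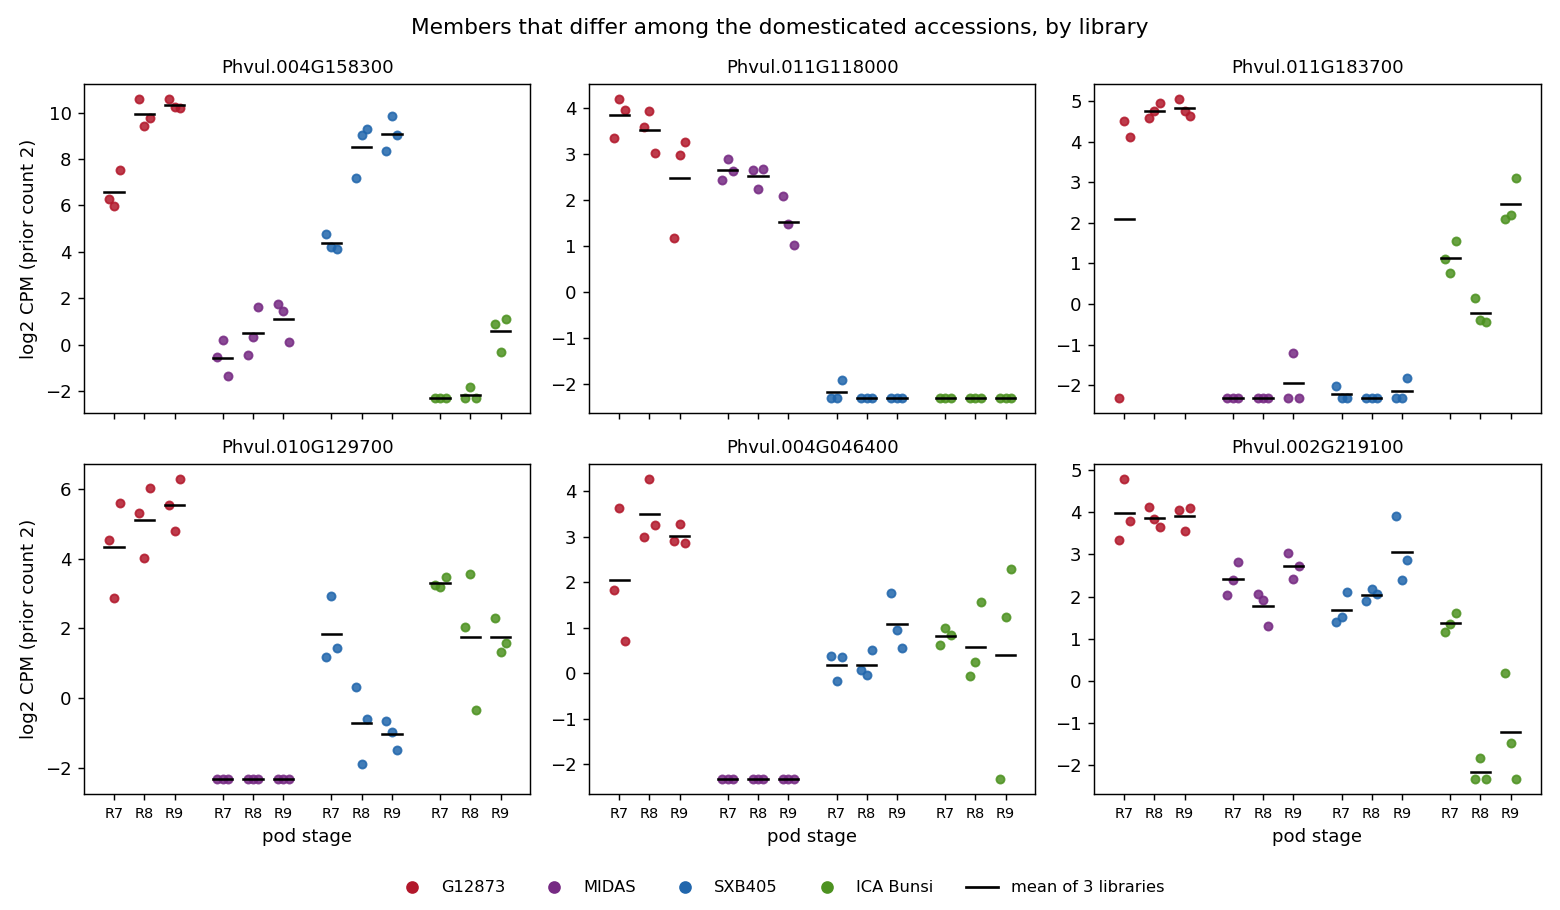
Log2 CPM (prior count 2) in each library for 6 members that differ among domesticated accessions, by accession and pod stage, with 1 point per library and a bar at the mean of 3. Among the domesticated accessions Phvul.004G158300 is high in SXB405, Phvul.011G118000 in MIDAS and Phvul.011G183700 in ICA Bunsi, Phvul.010G129700 and Phvul.004G046400 lie at the floor in all MIDAS libraries, and Phvul.002G219100 is lowest in ICA Bunsi at R8 and R9.

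Phvul.004G158300 showed the largest difference between domesticated accessions. SXB405 had 27.4, 18.5 and 17.1 CPM at R7, 146, 536 and 625 CPM at R8, and 322, 918 and 531 CPM at R9. ICA Bunsi had 0 in its 3 R7 libraries and at most 1.89 CPM later, and the MIDAS libraries ran from 0.195 to 3.01 CPM. SXB405 overlapped neither of them at any stage, with a log2 difference of 11.06 (SE 0.573; edgeR adjusted p = 4.91e-14) from ICA Bunsi that depends on the prior count, since 1 group is at 0. MIDAS was below SXB405 by a log2 difference of -7.21 (SE 0.418; edgeR adjusted p = 1.54e-13).

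Phvul.011G118000, on chromosome 11, was shared by G12873 and MIDAS. G12873 had 9.96, 18.2 and 15.4 CPM at R7, 11.8, 15.2 and 7.88 CPM at R8, and 2.05, 7.63 and 9.37 CPM at R9. MIDAS had 5.13, 7.15 and 5.95 CPM at R7, 6.02, 4.54 and 6.11 CPM at R8, and 4.02, 2.53 and 1.80 CPM at R9. MIDAS summed to 423 counts, SXB405 to 1 and ICA Bunsi to 0. Over the pooled libraries MIDAS was at least 128-fold higher than ICA Bunsi, taking 3 counts over its 9 libraries as the floor, and 663-fold higher than SXB405, with a 95% counting interval of 118 to 26300.

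Phvul.010G129700 and Phvul.004G046400 were at 0 in every MIDAS library. Phvul.010G129700 summed to 456 counts in ICA Bunsi, so MIDAS was at least 167-fold lower (edgeR adjusted p = 4.02e-06). In G12873 it had 23.2, 7.08 and 48.0 CPM at R7, 39.3, 15.9 and 64.7 CPM at R8, and 46.1, 27.6 and 77.8 CPM at R9. Phvul.004G046400 had 148 counts in SXB405 and 122 in ICA Bunsi, so MIDAS was at least 31.5-fold lower than SXB405 and at least 44.6-fold lower than ICA Bunsi.

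Phvul.011G183700 was measured at more than a few counts in ICA Bunsi alone among the domesticated beans. It summed to 2 counts in MIDAS, 2 in SXB405 and 141 in ICA Bunsi, a ratio of SXB405 to ICA Bunsi of 0.00824 with a 95% counting interval of 0.000989 to 0.0303. In G12873 it had 0, 22.2 and 17.1 CPM at R7, 23.9, 26.9 and 30.4 CPM at R8, and 33.2, 26.9 and 24.8 CPM at R9. Phvul.002G219100 was higher in SXB405 than in ICA Bunsi by 3.97 averaged over the stages (SE 0.348; edgeR adjusted p = 3.50e-10). At R7 the 2 accessions were close, with a mean of 3.07 ± 0.904 CPM for SXB405 and 2.42 ± 0.426 CPM for ICA Bunsi, while the R8 mean was 3.93 ± 0.410 CPM for SXB405 and 0.0272 ± 0.0471 CPM for ICA Bunsi (SD, n = 3 each).

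Calls at the low end rest on few counts. Phvul.005G164100 summed to 17 counts in MIDAS and 0 in SXB405 and ICA Bunsi, at least 8.88-fold higher than SXB405 and at least 5.16-fold higher than ICA Bunsi. Its edgeR adjusted p of 0.00337 against SXB405 and 0.0136 against ICA Bunsi became 1 without MIDAS R9 replicate 3. Phvul.002G135000 summed to 0 counts in SXB405 and 13 in ICA Bunsi, with SXB405 at least 7.46-fold lower, and its adjusted p of 0.00397 became 1 without ICA Bunsi R9 replicate 2.

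The members were spread over all 11 chromosomes, unevenly. Chromosome 11 held 15 of the 100 members, against 7.46% of all genes tested, and chromosome 10 held 11, against 5.83%. Chromosome 2 also held 15, against 12.6%, and chromosome 1 held 2, against 9.91%. On chromosome 11, 11 of the 15 members lay among the higher-numbered identifiers, past the midpoint of those on that chromosome, against 44.7% of the genes tested there. On chromosome 10, 4 of the 11 did (36.4%), against 53.3%. These shares are a description with no test, and 1 member lay on a scaffold.

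**Figure D5:**
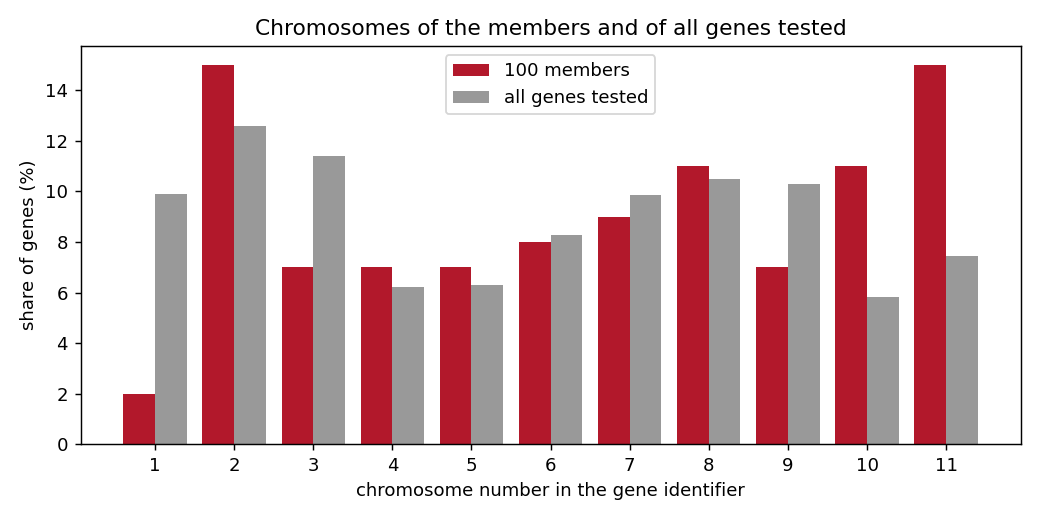
Share of the 100 members (red) and of all genes tested (grey) on each chromosome, in percent, with the chromosome read from the gene identifier. The members' share is above that of all genes on chromosomes 10 and 11 (11% and 15%, against 5.83% and 7.46%) and below it on chromosome 1 (2%, against 9.91%).

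Some members were near neighbours. In 8 pairs, 16 members in all, at most 5 other identifiers lay between the partners, and no run was longer than 2. Of the 691 other genes with a score within 5 identifiers of a member, 5.93% had a positive score, against 3.21% of all genes with a score, and their median score was -1.21, against -1.29. Most neighbours of members were therefore not higher in G12873 at every stage. Near neighbours can share reads where they are similar copies, and how the authors' counting divided such reads is not known here.

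Neighbours did not always share a course. Phvul.008G042400 and its neighbour Phvul.008G042350, named after its values were seen, both fell from R7 to R8 in G12873, by 2.62 (SE 0.549; edgeR adjusted p = 0.000951) and 2.60 (SE 0.697; edgeR adjusted p = 0.00544) on the log2 scale. Phvul.007G020600 and Phvul.007G020800 moved in opposite directions. Phvul.007G020600 had 19.9, 41.5 and 20.8 CPM at R7, 203, 109 and 133 CPM at R8, and 362, 185 and 149 CPM at R9 in G12873, and rose by 2.43 (SE 0.412; edgeR adjusted p = 5.60e-05) to R8, whereas Phvul.007G020800 fell as given above.

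Phvul.005G135000 rose in G12873 from R7 to R8 by 3.09 (SE 0.584; edgeR adjusted p = 0.000235), with 13.3, 15.2 and 9.09 CPM at R7 and 61.5, 118 and 109 CPM at R8. Its neighbour Phvul.005G135200, with 13.3, 40.4 and 24.4 CPM at R7 and 41.6, 29.8 and 43.6 CPM at R8, did not pass the test. On chromosome 4, Phvul.004G013100 was flat in G12873, with means of 9.88 ± 4.29, 11.6 ± 1.64 and 10.1 ± 2.48 CPM at R7, R8 and R9 (SD, n = 3 each). Its neighbour Phvul.004G013500 varied between libraries, with 277, 41.1 and 47.0 CPM at R8, and neither passed the test in any step.

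In gene structure the members were like other genes. The longest transcript had a median of 1652 bases, against 1630 over all genes tested, and 78 members had 1 transcript only, against 76.5%. Among the 22 members with more than 1, the transcript with the most counts differed between G12873 and the domesticated beans in 3 (13.6%), against 11.6% of 4887 genes. In Phvul.008G162000 the transcript numbered 2 took 68.3% of 1840 counts in G12873. In the domesticated beans it took 49.6% of 242 counts and transcript 1 took the rest, so the 2 transcripts were nearly equal there.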

How the data were processed

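Total RNA of untreated pods was sequenced as single reads from TruSeq libraries, per the labels' protocols. The authors deposited, per sample, estimated counts per transcript, not normalized and not necessarily whole, and TPM values, scaled by the authors for length and library size. The submitters' processing notes name kallisto, limma and edgeR, with no version. Build, annotation, kallisto index and strand setting were not given in the sources used here. Antisense partners therefore cannot be told apart, and values of near-identical genes are uncertain.

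Estimated counts of 36995 transcripts were summed per gene, without rounding for the scores and rounded to whole numbers for the tests. Tests used edgeR 4.0.16 (R 4.3.3) with TMM, filterByExpr on the 12 groups (minimum count 10, minimum total 15) and a robust quasi-likelihood fit over all 36 samples. P-values were adjusted by Benjamini-Hochberg over the 20966 genes tested, tests were two-sided, and the SE came from the F statistic. TPM values entered no test. Python 3.11.15 and matplotlib 3.10.9 read and drew the tables. The fit was tested on simulated data.

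Members, gene rules and tests were chosen with earlier results of these data known. Named genes were the 6 with the highest score, at most 2 up and 2 down per comparison by size among those called, the 2 with the highest TPM in G12873, those ranked 99 to 102, and up to 6 in the longest runs of neighbours. No 2 replicates agreed within sampling noise (lowest chi-square per degree of freedom 6.03 over 36 pairs).

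Alternatives were limma-voom with limma 3.58.1, DESeq2 1.42.0, RLE scaling, dropping the low-count filter or the minimum fold change, fitting only the samples compared, a replicate block, leaving out each library, leaving out 8 libraries, and, for the scores, prior counts of 0.5 and 5 and log2(TPM + 1). The counts of separated libraries and their alternatives were chosen after seeing the data. The 9 co-varying genes were those of the 50 most abundant whose Spearman correlation with the most abundant one was over 0.9.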

Additional observations from a re-analysis of the deposited data

Results flagged for a closer look

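In 6 members the change from R7 to R9 differed between G12873 and the mean of the 3 domesticated accessions by edgeR's quasi-likelihood interaction test, out of 100 tested members. On the log2 scale the difference, G12873 minus the domesticated mean, was 3.21 in Phvul.011G214300, 1.82 in Phvul.004G124800, -4.86 in Phvul.006G017600, -2.59 in Phvul.005G030800, -1.83 in Phvul.007G020600 and -2.02 in Phvul.010G063000.

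Phvul.007G020600 changed by 3.07 in G12873 and by 4.90 on average in the domesticated beans (adjusted p = 0.0122), so the gap narrowed. Phvul.010G063000, which no rule on named genes picked, changed by -1.96 in G12873 and by 0.06 in the domesticated beans (adjusted p = 0.0240). Its G12873 libraries had 19.9, 61.7 and 11.5 CPM at R7 and 6.30, 9.42 and 7.73 CPM at R9, and the R7 value of 61.7 CPM rests on 61 counts in replicate 2. The part of the unequal R7 depth in these 6 results was not tested beyond the left-out libraries. Groups of 3 libraries were not tested for outlying libraries.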

How the results depend on the processing

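Membership depended most on the scale and on the shallow libraries. Of the 100 members, 48 were among the first 100 with log2(TPM + 1), 62 without the 8 libraries over 50% in the co-varying genes, 73 to 96 with 1 library left out (73 without G12873 R7 replicate 2), and 89 to 99 under other prior counts, RLE, no filter or rounded sums. Members with separated libraries numbered 93 at R7 and 75 at all 3 stages without the 8 libraries, and with 1 library left out 51 to 74 at R7, 91 to 96 at R8, 75 to 81 at R9 and 39 to 53 at all 3.

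Called members with 1 library left out numbered 23 to 27 from R7 to R8, 0 to 0 from R8 to R9, 24 to 33 from R7 to R9, 31 to 35 for MIDAS against ICA Bunsi, 28 to 33 for MIDAS against SXB405, 8 to 15 for SXB405 against ICA Bunsi, and 4 to 9 for the interaction. On the samples compared alone 21 members were called from R7 to R9 in place of 32, with 2167 in place of 6299 among all genes, and 1920 in place of 5170 from R7 to R8. Without the 8 libraries the interaction called 3 members in place of 6, and 595 genes in place of 1851. The causes were not tested.

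With a replicate block the members called were 26, 0, 32, 33, 32, 14 and 6 in the order above. Of these, 30 of the 32 for MIDAS against SXB405 and 5 of the 6 for the interaction were also called without it, and Phvul.004G124800 was not called (adjusted p = 0.0525). Same-numbered libraries deviated together in few cases (r from -0.321 to 0.370 over 198 pairs of same-numbered libraries, 29 over 0.1), so the numbers were not taken to pair them.

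Over 525 alternatives to 24 values of named genes, 506 kept the call, 19 lost it and 0 reversed. The losses were those given in the report and that of Phvul.005G164100 against ICA Bunsi with DESeq2 (adjusted p = 0.0556) and limma-voom (0.0798). Low counts limit the R7 values of G12873: 8, 39 and 90 members had at least 10 counts in its 3 libraries.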
